A study of Homo sapiens with 2 samples.

Results

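The small RNA silencing machinery, the proteins through which siRNA and microRNA act, was described here by 10 genes that were chosen by symbol from the 44591 genes of the count table. They were AGO1, AGO2, AGO3, AGO4, DICER1, DROSHA, DGCR8, TARBP2, XPO5 and TNRC6A, and all 10 were found. RNA was sequenced from HSC-1, an established line of cutaneous squamous cell carcinoma, after transfection with the control oligonucleotide siNC or with siLINP1, which is directed against the long noncoding RNA LINP1. The labels state that cells at about 70% confluency were transfected, held for 6 h in medium without serum and collected 24 h after the medium was changed, while the methods of the study give a higher confluency and a later time. Each condition had 1 library of 1 cell line, both libraries carried a transfected siRNA, and untransfected cells were not analysed here. No difference could therefore be tested against the spread between cultures, and every interval covers counting error only.

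MicroRNA genes are transcribed as long primary transcripts, which the nuclease DROSHA and its RNA-binding partner DGCR8 cut in the nucleus to a hairpin. XPO5 carries the hairpin to the cytoplasm, where DICER1 cuts it to a short duplex with the help of the double-stranded RNA-binding protein TARBP2. An Argonaute protein keeps 1 strand of the duplex as a guide, pairs through the seed of that guide with target RNAs and binds a TNRC6 protein, which recruits the enzymes that shorten the poly(A) tail. A synthetic siRNA enters at the Argonaute step, and AGO2 is the Argonaute best known for cutting a fully paired target.

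The siRNAs of the study against LINP1 are shown because siLINP1 guide RNA is the cargo of this machinery in the siLINP1 library. Which of them was used for sequencing is not given in the sources used here. Each is printed as its target sequence of 19 bases, followed by the guide read as its reverse complement. Capitals mark bases 2 to 8 of the guide, its seed, and the matching bases of the target.
siLINP1_01 target: ccaactgcgggACTTCAGa
siLINP1_01 guide: tCTGAAGTcccgcagttgg
siLINP1_02 target: cactctccagcCTGCAAGa
siLINP1_02 guide: tCTTGCAGgctggagagtg

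Reads assigned to genes numbered 18829544 in siNC and 15383081 in siLINP1. The size factors (median of ratios) by which the counts were divided were 1.08 and 0.930, and the 19840 genes that reached a sum of 10 reads across the libraries were kept. LINP1 itself had 167 reads in siNC and 23 in siLINP1, a log2 fold change (siLINP1 over siNC, as in all that follows) of -2.65 with a 95% interval, taken from how its reads split between the libraries, of -3.35 to -2.02. The listed markers of squamous keratinocytes summed to 12032 reads in siNC and 9904 in siLINP1, most of them on ITGB4 and ITGA6. Of the 12, DSP had 699 and 512 reads, SFN 264 and 138 and KRT14 243 and 87, while KRT5 had 32 and 24, CDH1 14 and 3, and TP63 6 and 8. Past 1.5-fold were 2 of the 12 higher in siLINP1 and 3 lower, where all genes kept had 14.4% and 13%. Lower were KRT14 (-1.27), SFN (-0.73) and CDH1 (-2.01), and higher were KRT6A (0.75, 31 and 45 reads) and TP63 (0.62). The 2 with most reads went opposite ways, ITGB4 at -0.39 and ITGA6 at 0.32. Mesenchymal markers held 62812 and 43004 reads, nearly all on VIM (-0.33). COL1A1 (-1.06) and PDGFRB (-0.89) were past 1.5-fold lower, and COL1A2, with 4 and 8 reads, was past it higher (1.21). Blood cell markers summed to 13 and 152 reads, of which ITGAM had 12 and 148 while CD3E and HBB had 0 in both, and germ cell markers summed to 1 and 3. The part of these markers in the values of the silencing genes was not tested. In bulk RNA, fewer cells of a type and less RNA per cell cannot be told apart.

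Transcripts of all 10 silencing genes were present in both libraries, at 403 to 2907 reads in siNC and 409 to 2633 in siLINP1. None of them was past 1.5-fold in either direction. Of all genes kept, 14.4% were past 1.5-fold higher in siLINP1 and 13% past 1.5-fold lower. Among the 6707 genes whose summed reads lay within the range of the members, 812 to 5540, the shares were 5.89% and 3.88%, so that a count of 0 among 10 genes was near the background. By sign, 8 of the 10 were above 0 and DGCR8 and TARBP2 were below 0, against 47.8% of all genes kept above 0 and 47.7% of the genes of like depth. With the trend of the log2 fold change with gene length removed, TNRC6A moved to the other side of 0 (-0.024) and 7 of the 10 were above it. The interval lay above 0 for 7 of the members and below 0 for DGCR8 and TARBP2, and it included 0 for TNRC6A. It lay above 0 for 23% and below 0 for 25.6% of all genes kept, and for 32.4% and 36.1% of the genes of like depth. The median log2 fold change of the 10 genes was 0.23, with values between -0.49 for TARBP2 and 0.54 for DICER1. The median over all genes kept was -0.023, with quartiles of -0.34 and 0.32.

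**Figure D1:**
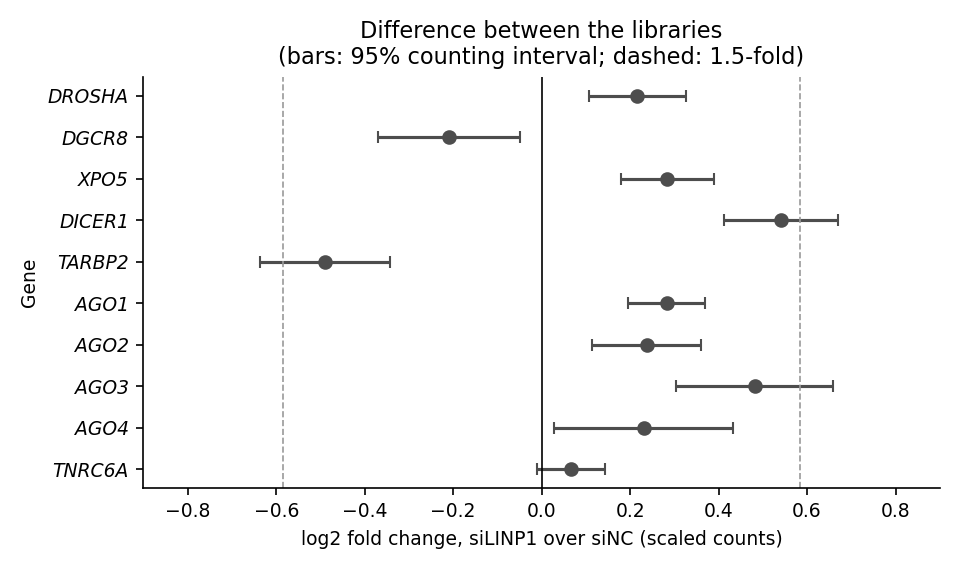
Log2 fold change of each silencing gene in siLINP1 over siNC, with the 95% interval from counting error as bars and 1 library per condition. DICER1 and AGO3 lie highest at 0.54 and 0.48, DGCR8 and TARBP2 lie below 0, and the interval of TNRC6A includes 0.

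**Figure D2:**
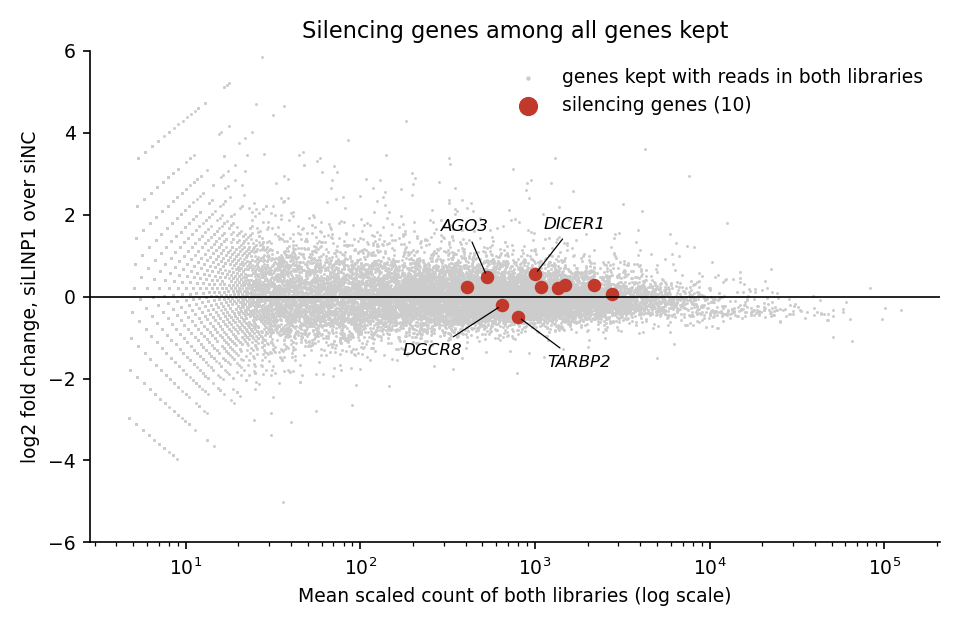
Log2 fold change in siLINP1 over siNC (vertical) against the mean scaled count of both libraries (horizontal, log axis) for the genes kept that had reads in both libraries, with the 10 silencing genes as larger points. The silencing genes lie inside the cloud of genes of like depth.

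Compared per length, as RPKM (reads per kilobase of the table's gene length, scaled to the counted reads of the library), the levels of the silencing genes spanned 8.84-fold in siNC and 5.40-fold in siLINP1. In siNC the RPKM was 26.8 for TARBP2, 18.3 for TNRC6A, 16.3 for AGO2, 14.8 for AGO1, 13.9 for XPO5, 13.1 for DROSHA, 8.78 for DGCR8, 6.95 for AGO3, 4.33 for DICER1 and 3.03 for AGO4. Neighbours in this order had overlapping counting intervals from AGO2 through AGO1 and XPO5 to DROSHA, and separate ones elsewhere. In siLINP1 the RPKM was 20.3 for TNRC6A and for AGO2, 20.2 for TARBP2, 19.1 for AGO1, 17.9 for XPO5, 16 for DROSHA, 10.3 for AGO3, 8.04 for DGCR8, 6.68 for DICER1 and 3.77 for AGO4. Here the intervals of neighbours overlapped for the 5 highest genes, TNRC6A to XPO5. TARBP2 was thus the highest of the 10 per length in siNC and 1 of several like levels in siLINP1, and AGO3 stood below DGCR8 in siNC and above it in siLINP1. DICER1 and AGO4 were the lowest 2 in both libraries. The median RPKM of all genes kept was 4.10 in siNC and 4.49 in siLINP1.

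**Figure D3:**
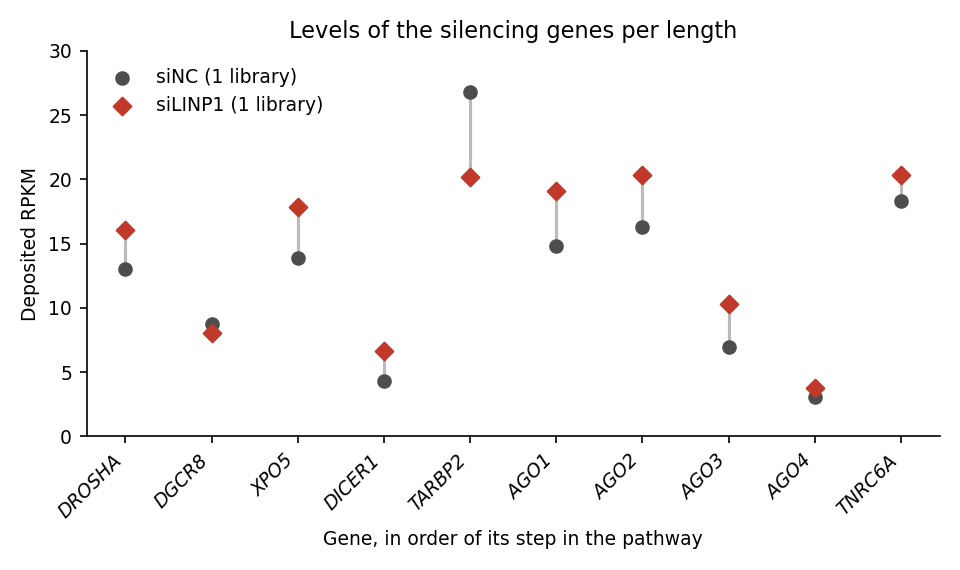
Level per length (RPKM) of each silencing gene in the siNC and the siLINP1 library, 1 point per library. TARBP2 has the highest level in siNC at 26.8, and AGO4 the lowest in both libraries at 3.03 and 3.77.

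DROSHA, the nuclease of the nuclear step (chromosome 5, 31400601 to 31532282, minus strand, GRCh37), had 1351 reads in siNC and 1357 in siLINP1. With the smaller depth of the siLINP1 library this came to a log2 fold change of 0.22 (95% interval 0.11 to 0.33). DGCR8, which holds the primary transcript for DROSHA (chromosome 22, 20067755 to 20099400, plus strand), had 747 and 559 reads, and its log2 fold change was -0.21 (-0.37 to -0.049). The partners of the nuclear complex therefore lay on opposite sides of 0. Per length, DROSHA stood at 1.49 times DGCR8 in siNC and 2.0 times in siLINP1. The read ratio of DROSHA to DGCR8 went from 1.81 to 2.43, a ratio of ratios of 1.34 (95% interval 1.17 to 1.54), which does not depend on the scaling of the libraries. DGCR8 shares its 3′ end on the opposite strand with TRMT2A over 12 bases of their spans, and TRMT2A had 901 and 688 reads. An antisense row inside the 3′ end of DGCR8, known by its Ensembl identifier ENSG00000243762.1, had 33 and 13 reads. The strand setting of the counting is not given in the sources used here, so that reads of a gene and its antisense partner cannot be told apart.

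The DGCR8 transcript is itself a host of the microRNA genes MIR1306 and MIR3618, whose hairpins lie within it. The mature sequences (RefSeq, GRCh38.p14) are shown as products cut out of a silencing gene's own transcript, with the seed (bases 2 to 8) in capitals.
hsa-miR-1306-3p: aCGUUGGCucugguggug
hsa-miR-1306-5p: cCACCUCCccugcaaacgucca
hsa-miR-3618: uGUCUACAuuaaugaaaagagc
The 3 seeds differ from each other. The table rows of both hairpins had 0 reads in both libraries. MIR3173, a microRNA gene inside DICER1, had 0 reads in siNC and 1 in siLINP1. Mature microRNAs were not measured by these libraries.

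XPO5, the export receptor of the hairpins (chromosome 6, 43490068 to 43543812, minus strand), had 1435 and 1511 reads in siNC and siLINP1, with a log2 fold change of 0.28 (0.18 to 0.39). RAN, the GTPase with which XPO5 binds its cargo, had 5935 and 4042 reads, and its log2 fold change was -0.34. The ratio of XPO5 to RAN reads went from 0.242 to 0.374, or 1.55 times (1.42 to 1.68). XPO5 overlaps POLR1C on the opposite strand over 7047 bases of their spans, and POLR1C had 524 and 499 reads with a log2 fold change of 0.14 (-0.041 to 0.32). The pseudogene RPS2P29 inside XPO5 had 13 and 15 reads.

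DICER1 and TARBP2, which act as partners in the cytoplasm, had the highest and the lowest log2 fold change of the 10 genes. DICER1 (chromosome 14, 95552565 to 95624347, minus strand) had 874 reads in siNC and 1100 in siLINP1, more reads in the shallower library. Its log2 fold change was 0.54 (0.41 to 0.67), or 1.46-fold, just under the threshold of 1.5-fold, which it passed at 0.62 when the libraries were scaled by their total counts, and it lay at percentile 93.1 of the genes of like depth. TARBP2 (chromosome 12, 53894705 to 53900215, plus strand) had 1003 and 618 reads. Its log2 fold change was -0.49 (-0.64 to -0.34), or 1.40-fold lower, at percentile 7.25 of the genes of like depth. The read ratio of DICER1 to TARBP2 was 0.871 in siNC and 1.78 in siLINP1, a ratio of ratios of 2.04 (1.78 to 2.34). Per length the same ratio was 0.162 and 0.330, so that TARBP2 stood above DICER1 in both libraries on that scale. With the trend with GC content removed, the log2 fold changes of DICER1 and TARBP2 lay closer, at 0.47 and -0.32. Removal of the trend with gene length put them at 0.42 and -0.41. The ratio of ratios was not recomputed for these settings. PRKRA, the other double-stranded RNA-binding partner of DICER1, had 293 and 318 reads and a log2 fold change of 0.33. The read ratio of TARBP2 to PRKRA went from 3.42 to 1.94, or 0.568 times (0.468 to 0.688), while that of DICER1 to PRKRA went from 2.98 to 3.46, with an interval (0.963 to 1.40) that includes 1. DICER1 overlaps DICER1-AS1 over 323 bases (13 reads in each library), and TARBP2 overlaps the antisense row ENSG00000270175.1 over 16 bases (17 and 9 reads). The part of these overlaps in the counts of DICER1 and TARBP2 was not tested.

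The ratios between partners were computed for 10 pairs, chosen after their values had been seen, and no test stands behind their order. Of the pairs that hold a silencing gene, DICER1 to TARBP2 had the ratio of ratios farthest from 1. This rank was fixed in advance, since these genes had the highest and the lowest log2 fold change of all genes in the pairs.

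**Figure D4:**
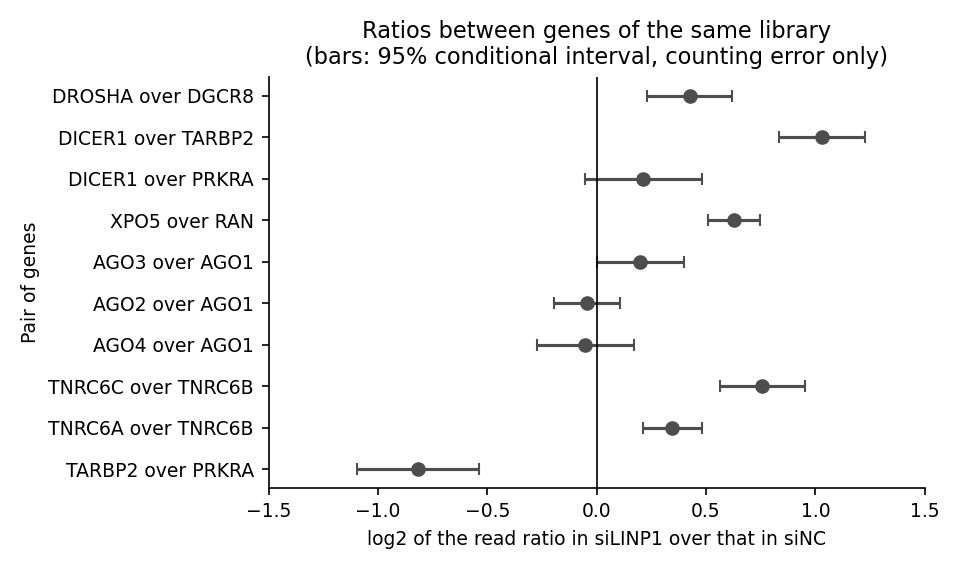
Change of the read ratio of each pair between siNC and siLINP1, as the log2 of the ratio of ratios with its 95% counting interval. Trends with GC content and gene length were not removed. DICER1 to TARBP2 lies highest at 1.03, TARBP2 to PRKRA lowest at -0.82, and the intervals of AGO2 to AGO1, AGO4 to AGO1 and DICER1 to PRKRA include 0.

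The Argonaute genes, whose proteins hold the guide strand, all had log2 fold changes above 0. AGO1 (chromosome 1, 36335409 to 36389900, plus strand) had 2121 reads in siNC and 2231 in siLINP1, a log2 fold change of 0.28 (0.20 to 0.37). AGO2, the Argonaute best known for cutting (chromosome 8, 141541264 to 141645646, minus strand), had 1073 and 1094 reads, and its log2 fold change was 0.24 (0.11 to 0.36). AGO3 (chromosome 1, 36396683 to 36522063, plus strand) had 477 and 576 reads, and its log2 fold change was 0.48 (0.30 to 0.66). It was the Argonaute with the largest value, at percentile 91.2 of the genes of like depth. AGO4 (chromosome 1, 36273828 to 36323491, plus strand) had the fewest reads of the 10 genes, 403 and 409, and a log2 fold change of 0.23 (0.029 to 0.43).

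Within the Argonaute pool, AGO3 alone held a larger share in siLINP1 than in siNC. Per length, AGO2 made up 39.6% of the pool in siNC and 38.0% in siLINP1, AGO1 36.1% and 35.7%, AGO3 16.9% and 19.2%, and AGO4 7.37% and 7.04%. The AGO2 share rests on the short row described below. The shares of the reads themselves, 4074 in siNC and 4310 in siLINP1, were for AGO3 11.7% (exact binomial 95% interval 10.7 to 12.7%) and 13.4% (12.4 to 14.4%), and these intervals overlap. The read ratio of AGO3 to AGO1 went from 0.225 to 0.258, a ratio of ratios of 1.15. Its interval (1.0007 to 1.32) only just excludes 1. The corresponding values were 0.969 (0.873 to 1.08) for AGO2 to AGO1 and 0.965 (0.828 to 1.12) for AGO4 to AGO1, both with an interval that includes 1. The Argonaute genes are paralogs, and reads that fit more than 1 of them may be counted differently by other settings.

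AGO4, AGO1 and AGO3 lie in this order on the plus strand of chromosome 1. The nearest genes kept outside the cluster had values below 0. CLSPN, a DNA replication checkpoint gene next to AGO4, had 753 and 377 reads, and its log2 fold change was -0.79 (-0.97 to -0.61). ADPRHL2, next to AGO3, had 1311 and 1064 reads, and its value of -0.092 (-0.21 to 0.026) has an interval that includes 0.

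The table's AGO2 row ends 11009 bases short of the 3′ end of AGO2 in the GENCODE annotation of GRCh37. A separate row, ENSG00000259758.1, lies in that stretch on the same strand (chromosome 8, 141530255 to 141539600) and had 1231 reads in siNC and 1422 in siLINP1, more than AGO2 itself. Summed with AGO2 it gave 2304 and 2516 reads, of which the separate row held 53.4% and 56.5%, and a log2 fold change of 0.34 (0.25 to 0.42) in place of 0.24. The level of AGO2 per length rests on the short form of the table. The rows of AGO1, AGO3 and TNRC6A end 6233, 16038 and 1405 bases before their annotated 3′ ends. No row on the same strand covers those stretches, so reads from there were not counted to any of these genes.

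TNRC6A, the scaffold that links Argonaute to the deadenylases (chromosome 16, 24741049 to 24837548, plus strand), had the most reads of the 10 genes, 2907 in siNC and 2633 in siLINP1. Its log2 fold change was 0.067 (-0.0100 to 0.14), the value nearest to 0 among the 10. An antisense row inside TNRC6A, ENSG00000261669.1, had 16 and 14 reads. Its paralogs TNRC6B and TNRC6C had 1646 and 1173 reads (log2 fold change -0.28) and 581 and 700 reads (0.48). TNRC6A held 56.6% of the reads of the 3 genes in siNC and 58.4% in siLINP1, TNRC6B 32.1% (30.8 to 33.4%) and 26.0% (24.8 to 27.3%), and TNRC6C 11.3% (10.5 to 12.2%) and 15.5% (14.5 to 16.6%). Per length, TNRC6A made up 70.1% and 69.9% of the 3. The read ratio of TNRC6A to TNRC6B went from 1.77 to 2.24, or 1.27 times (1.16 to 1.39).

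DGCR8 and TARBP2, the silencing genes with fewer scaled reads in siLINP1, are shown with the sequence before their start in the table (GRCh37, plus strand), because both hold several copies of CCAAT, the core of the site of the factor NF-Y. Capitals mark CCAAT on either strand, which reads ATTGG on the strand printed when it lies on the other.
TARBP2, chr12:53894457-53894704: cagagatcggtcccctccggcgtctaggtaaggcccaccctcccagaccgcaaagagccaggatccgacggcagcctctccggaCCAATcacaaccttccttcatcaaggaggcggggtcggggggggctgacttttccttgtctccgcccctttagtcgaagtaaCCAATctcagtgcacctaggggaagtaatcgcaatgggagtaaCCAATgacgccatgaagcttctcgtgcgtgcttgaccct
DGCR8, chr22:20067514-20067743: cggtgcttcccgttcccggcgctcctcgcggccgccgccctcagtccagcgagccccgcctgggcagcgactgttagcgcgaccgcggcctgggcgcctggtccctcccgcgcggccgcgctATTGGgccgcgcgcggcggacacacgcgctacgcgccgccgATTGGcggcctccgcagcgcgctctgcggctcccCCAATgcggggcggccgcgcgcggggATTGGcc
The TARBP2 stretch holds 3 matches and the DGCR8 stretch 4. RefSeq promoter windows of 300 bases (GRCh38.p14) were found for 9 of the 10 genes, all but AGO2. In the window nearest to the table's start, DGCR8 held 4 matches, DROSHA and TARBP2 3 each, AGO1 and TNRC6A 1 each, and the others 0. The AGO1 window lies 13401 bases from the start of its row in the table, so it does not describe the start of that row. At least 3 matches were held by 3.26% of 35116 windows, and at least 1 by 34.6%. DROSHA, which was above 0, held as many as TARBP2, which was below 0. The part of the motif in the values was not tested. The motifs CACGTG, TGACGTCA and the interferon-stimulated response element (GAAA repeated after a gap of any 2 bases), searched on both strands, were in none of the 9 windows, against 7.26%, 1.85% and 3.57% of all windows. A match is a description of letters and not of binding.

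The guides printed above were also compared with the silencing genes themselves. No member held a full match of 19 bases to either target. A site for the seed of siLINP1_01 lay in the annotated 3′UTR of 6 of the 10 genes, with 3 sites in AGO3, 2 each in AGO2 and AGO4, and 1 each in AGO1, DICER1 and TNRC6A. Such a site was held by 16.4% of the 13579 coding genes kept. The 3′UTRs of the silencing genes were longer, with a median of 3340.5 bases against 1301, and per kilobase they held 0.182 sites against 0.101. For siLINP1_02 there were 2 of 10 genes with a site, AGO2 and AGO3, against 13.4% of the coding genes, and 0.0363 sites per kilobase against 0.0774. All 6 genes with a siLINP1_01 site had values above 0, while DROSHA and XPO5, also above 0, held no site for either guide, and nor did DGCR8 and TARBP2. For TNRC6A, 1 of the 6, the interval included 0 (-0.0100 to 0.14). Its value was -0.024 with the gene length trend removed. The part of these sites in the values was not tested.

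Base composition differed among the silencing genes. TARBP2 and DGCR8 had GC contents of 60.1% and 54.6% in the canonical GENCODE transcript, and DICER1 and AGO3 had 40.2% and 38.9%. For AGO3 that transcript has 19660 bases against 3645 in the counted row, for AGO2 14595 against 3500 and for AGO1 13712 against 7589. The GC contents of these genes, and their values with the GC trend removed, thus rest largely on sequence outside the counted rows. The median of the 10 genes was 46.3%, against 48.3% over 11924 genes with at least 100 reads. Removing the trend of the log2 fold change with GC content moved TARBP2 from -0.49 to -0.32, DICER1 from 0.54 to 0.47 and AGO3 from 0.48 to 0.40. DGCR8 moved from -0.21 to -0.12 and stayed below 0.

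Other genes of the pathway, in lists beside the 10, were mostly within 1.5-fold. Of 20 listed Argonaute partners and loading factors, 19 were kept and 0 were past 1.5-fold. Of all genes kept, 14.4% were past it higher and 13% lower, and of the genes of like depth to the silencing genes 5.89% and 3.88%. Of the 19, 7 were above 0 (47.8% of all genes kept) and 12 below, with a median log2 fold change of -0.12. The most abundant were the chaperones HSP90AB1, with 25548 and 20319 reads (-0.12), and HSP90AA1, with 23132 and 18020 (-0.15). Of 21 genes of microRNA processing, export and turnover, 20 were kept, with a median of 0.027. Against the 5.89% of genes of like depth past 1.5-fold higher, 1 of the 20 was past it. That gene was ZCCHC6, a uridylyltransferase that adds uridines to microRNA precursors, with 646 and 966 reads, a log2 fold change of 0.79 (0.64 to 0.94). HNRNPA1, the most abundant of this list, had 28299 and 17581 reads (-0.48).

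All 32 genes of deadenylation, decapping and decay, the machinery that TNRC6 proteins recruit, were kept. There were 16 above and 16 below 0 with a median of 0.043, and 2 were past 1.5-fold, both higher. Among the genes of like depth to the silencing genes, 5.89% were past 1.5-fold higher, so that 2 of 32 was near the background. Scaling by the total count put 5 of the 32 past 1.5-fold, where 3314 of all 19840 genes kept were past it higher and 2069 lower. PAN2, the catalytic subunit of a deadenylase, had 488 and 733 reads, and its log2 fold change was 0.80 (0.63 to 0.96). BTG2, which binds the CCR4-NOT deadenylase, had 1394 and 1970 reads, and its log2 fold change was 0.71 (0.61 to 0.81). The poly(A)-binding protein genes PABPC1 and PABPC4 had 36155 and 24712 reads (-0.34) and 6371 and 5377 reads (-0.035).

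The PIWI and germline genes, a related pathway of the gonad, had few reads. Of 14 listed, 5 had 0 reads in both libraries, PIWIL1 among them, and 6 were kept. Past 1.5-fold were 4 of the 6, 3 higher and 1 lower, where all genes kept had 14.4% and 13%. Few reads lay behind MOV10L1 (9 and 3), HENMT1 (13 and 20) and TDRD5 (12 and 23), and with a minimum of 100 reads PLD6 alone was left. PLD6, a protein of the phospholipase D family on the mitochondrial surface, had 347 and 765 reads and was 2.55-fold higher (log2 fold change 1.35, 1.17 to 1.54). TDRD6, next in abundance, had 25 and 24 reads.

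Host transcripts of microRNAs, the substrates of DROSHA and DGCR8, did not share a direction. Of 50 rows named as microRNA hosts, 24 were kept, 13 above and 11 below 0, with a median of 0.016, 6 past 1.5-fold higher and 5 past 1.5-fold lower, where all genes kept had 14.4% and 13%. With a minimum of 100 reads, 4 of 12 were past 1.5-fold, where all genes at that minimum had 1163 higher and 903 lower of 13336. MIR100HG had the most reads, 3195 and 3226 (0.22), followed by MIR4435-2HG with 886 and 1015 (0.41) and MIR4697HG with 509 and 254 (-0.79). MIR548XHG had 49 and 93 reads (1.13, interval 0.62 to 1.66) and MIR31HG 104 and 140 (0.64, 0.26 to 1.02). MIR210HG, the host of a microRNA known to respond to hypoxia, had 93 and 30 reads (-1.42, -2.07 to -0.82).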

How the data were processed

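Total RNA of HSC-1 cells was sequenced on an Illumina HiSeq instrument at a service company, and the authors aligned reads to GRCh37/hg19 with Tophat2 and applied HTSeq. The submitters' processing notes also name HISAT2, HISAT and Bowtie2. Versions, annotation and strand setting are not given in the sources used here. The deposited values used were raw read counts per gene and the gene length in bases. RPKM values that the authors deposited beside them matched the count divided by length and library total. The table's 12 other per-sample columns were not used.

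The 10 members and all gene lists were chosen with earlier results of these data known. The genes named were all members, the target, in each list the 2 with most reads (3 for microRNA hosts) and up to 4 per direction past 1.5-fold with at least 100 reads, and overlapping or flanking genes. RAN, PRKRA, TNRC6B and TNRC6C were added once their values were known. Some results on single genes are left out.

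Genes with at least 10 reads summed were kept. The log2 fold change used median-of-ratios size factors without a pseudocount. Its 95% interval is the exact binomial (Clopper-Pearson) interval of the split of reads, and for read ratios the conditional interval of the odds ratio. The counting interval of an RPKM is exact Poisson. With 1 library per condition, no p-value was computed and "past 1.5-fold" is a rule of size. Transcript features and 3′UTRs came from GENCODE on GRCh37 and promoters and microRNAs from RefSeq. Alternatives were total-count and TMM scaling (edgeR 4.0.16, R 4.3.3), pseudocounts of 1 and 5, protein-coding genes alone, minima of 1 and 100 reads, and lowess trends (fraction 0.3) with gene length. The trend with GC content and the extended AGO2 were added after the data were seen. The calculation was tested on simulated counts. Calculations ran in scipy 1.17.1, pandas 2.3.3, statsmodels 0.14.6 and numpy 2.4.6 under Python 3.11.15, and plots in matplotlib 3.10.9.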

Additional observations from a re-analysis of the deposited data

How the results depend on the processing

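No paired analysis was possible because each condition had 1 library. Of 250 values recomputed under the alternatives, 217 stayed inside the interval of the reported value or, for counts, within 1.5 times of it, and 33 did not. Some of the 217 could not move, since another minimum of reads leaves the log2 fold change of a member as it was. Pseudocounts are small beside the reads of the members, and the intervals of the list medians are wide (-0.21 to 0.48 for the members). The tally is therefore no measure of how firm the values are. Pseudocounts of 1 and 5 moved none of them. TMM scaling moved 1, the median of all genes, from -0.023 to 0.0044. This median also left its interval under 5 of the other settings. Total-count scaling, which put it at 0.059, put TNRC6A at 0.15, DICER1 at 0.62 and so 1 member past 1.5-fold higher, and 5 deadenylation and decay genes past 1.5-fold. Of all 19840 genes kept, it gave 3314 past 1.5-fold higher and 2069 lower. A minimum of 1 read gave 7048 genes past 1.5-fold higher and 6456 lower of 29515, with 1 Argonaute partner and 19 microRNA hosts. A minimum of 100 reads gave 1163 higher and 903 lower of 13336, with 1 PIWI and germline gene and 4 microRNA hosts. Protein-coding genes alone gave 1673 higher and 1346 lower of 14275. Removing the trend with gene length put TNRC6A at -0.024, the 1 member whose sign depended on the setting, and gave 1240 genes higher and 712 lower of 13335, with 1 Argonaute partner, 4 microRNA hosts and 1 PIWI and germline gene left, at 1.40. Removing the GC trend put TARBP2 at -0.32 and gave 1044 genes higher and 590 lower of 11923, with 0 processing genes (ZCCHC6 was without a GC value), 3 microRNA hosts and 1 PIWI and germline gene, at 1.41. The other members kept their sign under every setting run, with DICER1 between 0.42 and 0.62, AGO3 between 0.40 and 0.56 and DGCR8 between -0.23 and -0.12. The median of the 10 lay between 0.19 and 0.32. The cause of these moves was not tested. Depth limits AGO4 and AGO3 most, since they had the widest counting intervals, and the spread between cultures is unknown for all 10.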
